A study of Mus musculus with 9 samples.

Results

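The genes described here are 40 classical type I interferon-stimulated genes (ISGs), taken from a fixed list of gene symbols. The list was chosen with earlier results of these data known, so shares of members set beside shares of all genes are descriptive. All 40 were among the 24346 symbols measured, and 39 were among the 10686 genes tested, those with 1 FPKM or more in 3 or more of the 9 samples. FPKM counts the fragments of a gene per kilobase of transcript and relative to the mapped total. Mx2 did not reach this level. Macrophages had been sorted as CD45+ autofluorescent cells from the lungs of female C57BL/6 mice at postnatal week 10, with 3 samples in each of 3 groups. Ctrl-AM samples were Siglec-F+ alveolar macrophages (AMs) of control mice that received vehicle, Tumor-AM samples were the same Siglec-F+ gate in mice whose left lung had been implanted with tdTomato-labelled Lewis lung carcinoma (LLC) cells, a lung cancer line of C57BL/6 origin, and Tumor-macrophage samples were the Siglec-F- tumor-associated macrophages of LLC-bearing mice. The lungs were not perfused before digestion, and the model rests on 1 transplanted line. Control and tumor-bearing mice were bred apart, so housing and group cannot be told apart. Whether Tumor-AM and Tumor-macrophage samples of the same number came from the same mouse was not given in the sources used here. In sorted bulk samples, a larger share of responding cells and more transcript per cell cannot be told apart.

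Type I interferons bind the IFNAR1/IFNAR2 receptor, whose kinases JAK1 and TYK2 activate a transcription factor complex that contains IRF9. The complex binds interferon-stimulated response elements (ISREs) in promoters and switches on a set of antiviral genes. Many of these genes also respond to interferon gamma, which acts at gamma-activated sites (GAS), and to interferon lambda. In the lung, AMs are among the cells that make type I interferon during respiratory virus infection, and tumors can induce the same genes without any virus.

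In all 3 comparisons the ISGs were shifted upwards. In Tumor-AMs 13 of the 39 tested members were higher than in Ctrl-AMs (33.3%, against 7.11% of all genes tested) and 0 were lower (3.18% of all genes). The oligoadenylate synthetase genes Oasl2, Oas1g and Oas3 had the largest changes, and many signature genes such as Isg15, Usp18 and Mx1 did not pass the test. In Tumor-macrophages 35 members were higher than in Tumor-AMs (89.7%, against 24.2% of all genes) and 37 were higher than in Ctrl-AMs (94.9%, against 27.7%). Without Mx1 and Ifi44, which passed the filter through Tumor-macrophages only, these counts were 33 and 35 of 37. These 37 still hold Oas2, Oasl1, Cmpk2 and Usp18, which passed the filter only with their Tumor-macrophage samples. The exception in direction was Trim25, which was lower in Tumor-macrophages in both comparisons, where 24.4% and 27.1% of all genes were lower. These 3 comparisons share samples and are therefore not independent of each other.

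The sequences below show what several of the genes share in their promoters. Each is the 160 bases before the RefSeq start site in the assembly GRCm38.p6 (also called mm10), 5′ to 3′ on the gene's own strand, with every match to the ISRE core in capitals. The core was searched as a pair of GAAA boxes separated by any 2 bases, or its reverse complement, and overlapping matches were joined. The first group holds interferon signature genes, the second a pair of neighbouring oligoadenylate synthetase genes, the third other members higher in Tumor-AMs that hold a match, and the last is Trim25, whose stretch holds no match. Oasl2, Ifit2, Isg20, Sp100 and Xaf1 were also higher in Tumor-AMs, but their promoters held no match and are not shown. The printed set therefore does not show whether a match goes with the direction of a change.
Isg15 (chr4:156200819-156200978, minus strand): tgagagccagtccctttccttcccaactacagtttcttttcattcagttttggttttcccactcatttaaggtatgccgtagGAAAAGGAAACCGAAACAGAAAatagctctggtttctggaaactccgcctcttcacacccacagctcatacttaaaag
Ifit1 (chr19:34640729-34640888, plus strand): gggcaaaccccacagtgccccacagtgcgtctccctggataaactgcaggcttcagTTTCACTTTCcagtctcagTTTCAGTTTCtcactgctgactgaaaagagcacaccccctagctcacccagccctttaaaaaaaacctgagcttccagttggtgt
Ifit3 (chr19:34583369-34583528, plus strand): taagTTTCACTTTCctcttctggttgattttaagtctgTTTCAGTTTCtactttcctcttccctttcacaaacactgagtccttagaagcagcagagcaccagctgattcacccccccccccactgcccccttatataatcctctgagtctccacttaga
Oas1a (chr5:120907526-120907685, minus strand): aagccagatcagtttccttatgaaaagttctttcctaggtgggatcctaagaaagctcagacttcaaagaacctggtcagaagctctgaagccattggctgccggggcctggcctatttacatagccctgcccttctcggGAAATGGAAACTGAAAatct
Oas1g (chr5:120887614-120887773, minus strand): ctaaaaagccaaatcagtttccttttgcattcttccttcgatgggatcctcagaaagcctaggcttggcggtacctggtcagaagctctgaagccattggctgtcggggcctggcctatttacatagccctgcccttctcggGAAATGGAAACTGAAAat
Rsad2 (chr12:26456453-26456612, minus strand): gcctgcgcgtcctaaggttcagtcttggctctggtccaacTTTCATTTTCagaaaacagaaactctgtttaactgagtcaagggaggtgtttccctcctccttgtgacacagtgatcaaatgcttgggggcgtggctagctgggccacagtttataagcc
Bst2 (chr8:71537473-71537632, minus strand): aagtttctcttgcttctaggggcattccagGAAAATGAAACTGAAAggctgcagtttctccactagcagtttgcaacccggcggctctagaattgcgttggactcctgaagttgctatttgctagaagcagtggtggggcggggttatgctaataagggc
Phf11b (chr14:59341331-59341490, minus strand): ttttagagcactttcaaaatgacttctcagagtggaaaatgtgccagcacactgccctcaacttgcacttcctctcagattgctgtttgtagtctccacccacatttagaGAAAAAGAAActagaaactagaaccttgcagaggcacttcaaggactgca
Trim25 (chr11:88999243-88999402, plus strand): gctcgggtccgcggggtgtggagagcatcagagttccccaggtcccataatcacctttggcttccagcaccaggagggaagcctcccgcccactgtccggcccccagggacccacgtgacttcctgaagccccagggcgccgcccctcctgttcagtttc

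In the Isg15 stretch 3 overlapping matches began at positions -78, -72 and -66 from the start site. Ifit1 and Ifit3 each had 2 separate matches, on the opposite strand. In Oas1a and Oas1g the same overlapping pair lay next to the start site, beginning at -20 and -14 in Oas1a and at -18 and -12 in Oas1g. RefSeq promoters were matched for 31 of the 40 members, from 250 bases before to 50 bases after the start site. The ISRE core was found in 15 of these 31 (48.4%) and in 3.99% of 27025 mouse genes with promoters of that length (3.44% of 32851 promoters). The GAS core TTCNNNGAA, which reads the same on both strands in its fixed letters, was found in 9 of the 31 (29.0%) and in 9.55% of all genes (8.3% of promoters). Bst2, Eif2ak2, Ifitm3 and Oas1a held both, and in Bst2 and Ifitm3 the matches overlapped. All 13 members that were higher in Tumor-AMs had a promoter, and 8 of them held the ISRE core, while 7 of 18 members that did not pass the test held it. A match is a description of the sequence and does not show binding.

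Depth was estimated from the spacing of low FPKM values at 11100000 to 13900000 reads per sample. Between 65.0% and 70.5% of low values lay within 0.05 of a whole number of reads. The depth was set from these same values, so this share is not a separate check of it. The mean log2(FPKM + 1) over all genes tested was 3.60 to 3.68 in every sample. Siglecf had an FPKM of 193 to 209 in Ctrl-AMs, 164 to 183 in Tumor-AMs and 0.456 to 0.835 in Tumor-macrophages. It encodes the protein that defined the sorting gate.

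Over the 39 tested members, the mean log2(FPKM + 1) was 2.09, 2.29 and 2.29 in the 3 Ctrl-AM samples, 2.83, 2.95 and 2.61 in the Tumor-AM samples and 4.19, 4.62 and 4.25 in the Tumor-macrophage samples. The 3 groups did not overlap. The mean FPKM rose in the order Ctrl-AM, Tumor-AM, Tumor-macrophage for 36 of the 40 members. Ifi35, Dtx3l and Samd9l had their lowest mean in Tumor-AMs, and Trim25 ran in the opposite order. The spread within groups had a direction of its own. Tumor-AM 2 was the highest Tumor-AM sample for 26 of 39 members (35.9% of all genes), and Tumor-macrophage 2 the highest of its group for 31 (34.7% of all genes). Ctrl-AM 1 was the lowest control for 27 members (35.4% of all genes), and Tumor-AM 3 the lowest Tumor-AM sample for 25 (32.6% of all genes).

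**Figure D1:**
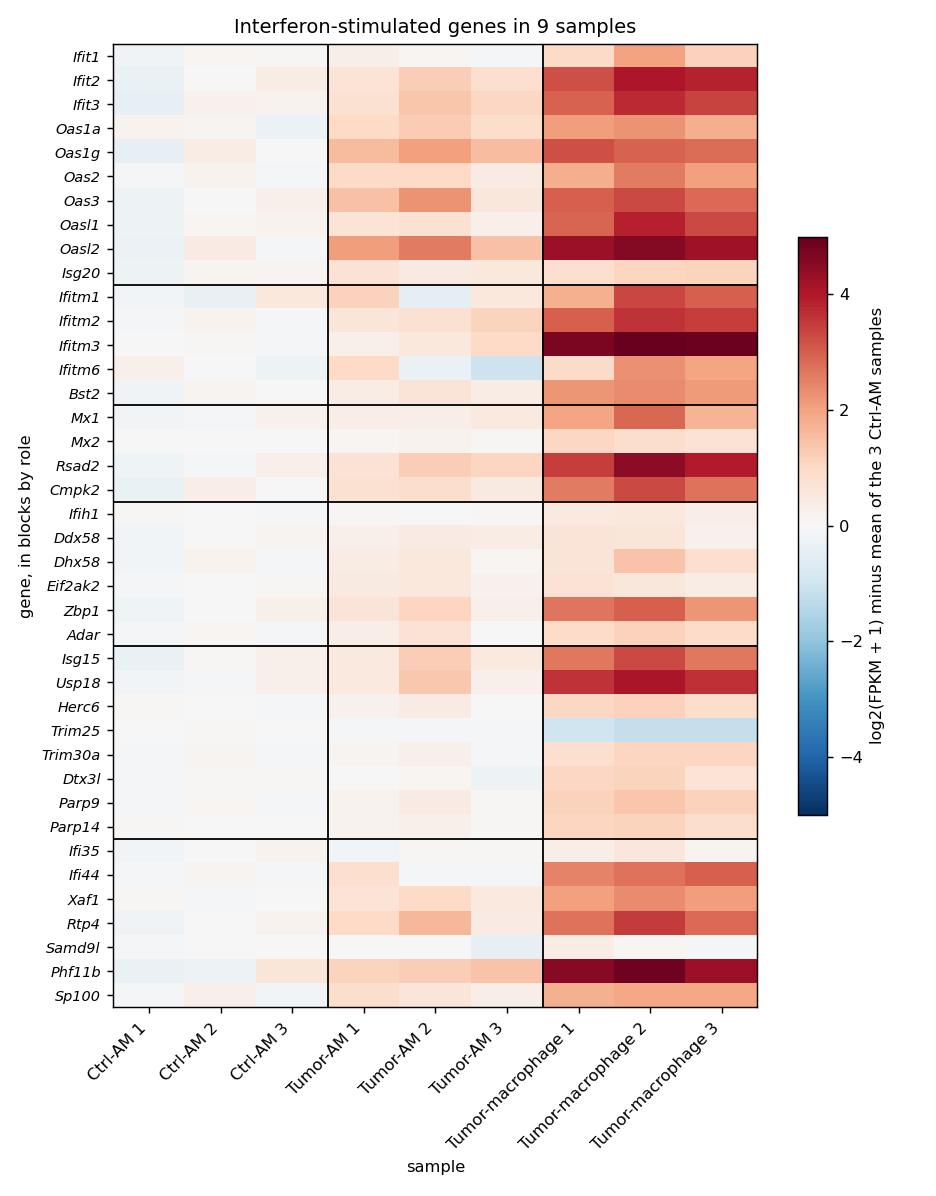
Heat map of log2(FPKM + 1) for the 40 members (rows, in blocks by role) in the 9 samples (columns), each minus the mean of the 3 Ctrl-AM samples, so that red is above and blue below the control mean. The Tumor-AM columns are pale red in the upper blocks, the Tumor-macrophage columns are red in nearly every row, and Trim25 is the blue row.

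The question put by the first comparison is how AMs change when the lung bears a tumor. Of the cap-binding and RNA-degrading effectors, 7 of 10 were higher in Tumor-AMs than in Ctrl-AMs, where 7.11% of all genes were. The same share of all genes applies to each class below. The oligoadenylate synthetases (OAS) detect double-stranded RNA and make short adenylate chains that activate RNase L, and the OAS-like proteins share their fold. Oasl2 had an FPKM of 0.306, 1.10 and 0.488 in Ctrl-AMs, 5.79, 8.77 and 3.37 in Tumor-AMs and 31.2, 37.1 and 29.1 in Tumor-macrophages. Every Tumor-AM sample lay above every control. The change from Ctrl-AM to Tumor-AM on the log2(FPKM + 1) scale was 2.05 (SE 0.269, limma adjusted p = 0.00151), the largest of the members, and the ratio of the group means was 9.48. The control mean in this ratio rests on an estimated 75 reads over the control samples.

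Oas1g followed with FPKM values of 0.313, 1.25 and 0.774 in Ctrl-AMs, 4.20, 6.12 and 4.11 in Tumor-AMs and 15.1, 12.5 and 10.9 in Tumor-macrophages. Its log2 change in Tumor-AMs was 1.73 (SE 0.21, limma adjusted p = 0.00101). Oas1a, its neighbour on chromosome 5, was expressed at a higher level throughout, with 13.9, 13.7 and 9.81 in Ctrl-AMs, 25.5, 31.1 and 23.3 in Tumor-AMs and 55.7, 61.5 and 46.1 in Tumor-macrophages. It rose by 1.04 (SE 0.156, limma adjusted p = 0.00287). The paralogs share sequence, and 47.6% of the 75-base windows of the Oas1a transcript occur in Oas1g, so how reads were split between them affects both values. Oas3, for which no window was shared, went from 0.162, 0.395 and 0.665 in Ctrl-AMs to 2.84, 5.69 and 1.04 in Tumor-AMs, a change of 1.42 (SE 0.349, limma adjusted p = 0.0286). The Tumor-AM samples differed widely, and the lowest of them was just above the highest control. Oas2, with 0.0891, 0.332 and 0.0976 in Ctrl-AMs and 1.28, 1.31 and 0.559 in Tumor-AMs, did not pass the test (0.79, adjusted p = 0.0522), and neither did Oasl1 (0.57, adjusted p = 0.183). In the same comparison Isg20, an exonuclease that degrades single-stranded RNA, was higher by 0.57 (limma adjusted p = 0.028).

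The IFIT proteins bind viral RNA whose cap or end lacks the host's marks and block its translation. Ifit3 had an FPKM of 0.0455, 0.638 and 0.598 in Ctrl-AMs, 1.4, 2.67 and 1.83 in Tumor-AMs and 9.83, 17.7 and 13.4 in Tumor-macrophages. Its change in Tumor-AMs was 1.06 (SE 0.245, limma adjusted p = 0.0223), and 41.1% of its windows are shared with Ifit3b. Ifit2 was higher by 0.92 (limma adjusted p = 0.0394). Ifit1, next to them on chromosome 19, had overlapping values of 0.904, 1.32 and 1.26 in Ctrl-AMs and 1.67, 1.28 and 1.08 in Tumor-AMs (0.11, adjusted p = 0.829). Within 1 gene cluster, the members thus gave different results in Tumor-AMs, and the differences between them were not tested.

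**Figure D2:**
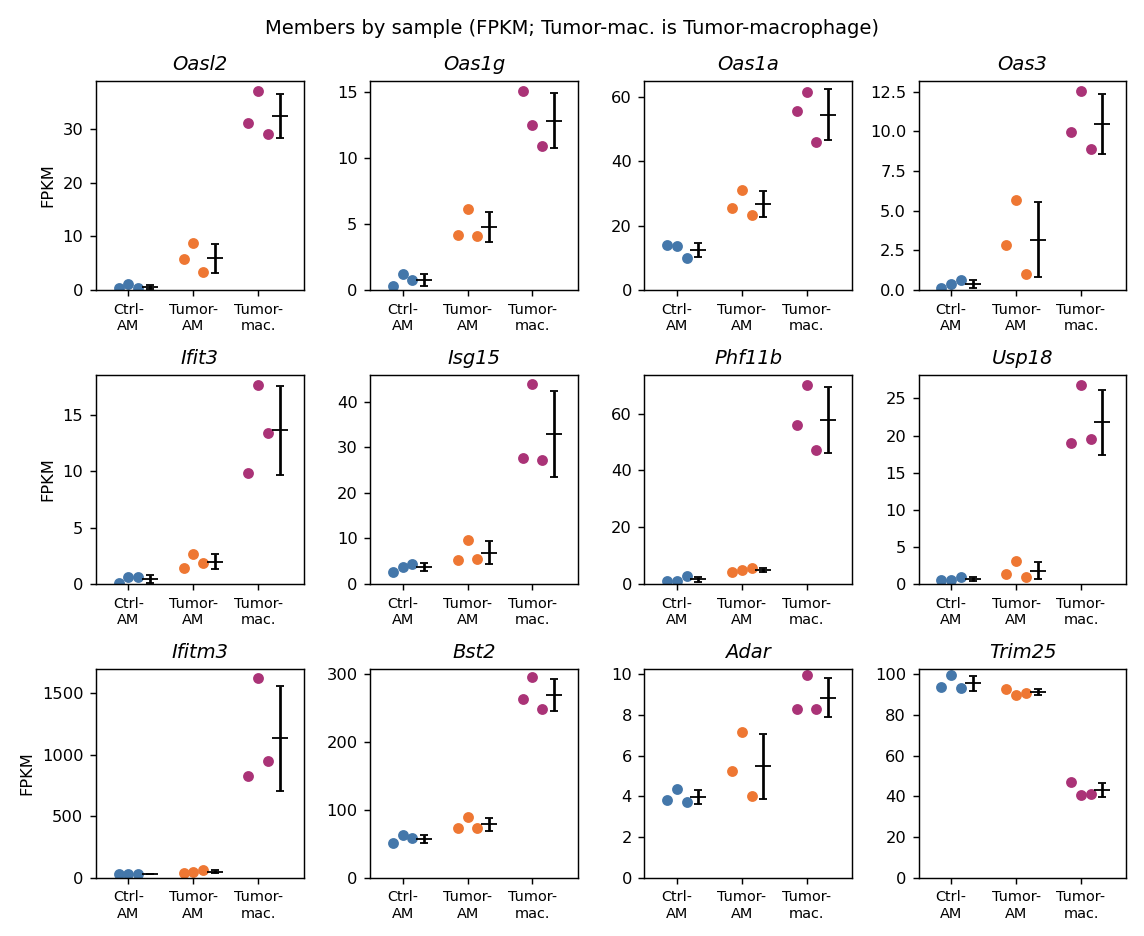
FPKM (y axis, linear and starting at 0, with its own scale in each panel) of 12 members in each of the 9 samples, 3 points per group, with the group mean and SD as black bars. The Tumor-AM points of Oasl2, Oas1g, Oas1a and Oas3 stand apart from the controls, those of Usp18 and Adar overlap them, and the Tumor-macrophage points of Trim25 lie below the others.

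Among the membrane and entry proteins 2 of 5 were higher in Tumor-AMs. The IFITM proteins sit in endosomal and plasma membranes and hinder the fusion of enveloped viruses. Ifitm2 had FPKM values of 98.9, 116.8 and 96.6 in Ctrl-AMs and 156.6, 177.8 and 222.7 in Tumor-AMs, a change of 0.82 (SE 0.164, limma adjusted p = 0.0119). About 42.0% of its windows occur in other annotated genes. Bst2, which encodes tetherin, the protein that holds budding virions at the cell surface, had 50.8, 62.4 and 58.0 in Ctrl-AMs and 73.4, 89.2 and 73.0 in Tumor-AMs. These groups did not overlap, and the change was small (0.45, SE 0.107, limma adjusted p = 0.0246). Ifitm3 had 31.1, 32.3 and 29.9 in Ctrl-AMs and 37.7, 45.5 and 62.4 in Tumor-AMs, which did not overlap either but missed the threshold (0.60, SE 0.233, limma adjusted p = 0.143). Ifitm1 and Ifitm6 overlapped between the groups, and Ifitm6 ran from 0.219 to 3.90 within the Tumor-AM samples alone.

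Of the GTPase and nucleotide metabolism genes, Rsad2 was higher in Tumor-AMs. It encodes viperin, which makes a chain-terminating nucleotide, and its FPKM went from 0.114, 0.239 and 0.519 in Ctrl-AMs to 1.09, 2.01 and 1.67 in Tumor-AMs (1.00, SE 0.241, limma adjusted p = 0.027). Its neighbour on chromosome 12, the mitochondrial nucleotide kinase gene Cmpk2, had 0.137, 0.790 and 0.407 against 1.39, 1.63 and 0.930 and did not pass (0.70, adjusted p = 0.0796). Mx1, a dynamin-like GTPase gene that carries a large deletion in C57BL/6 mice, had 0, 0.0287 and 0.287 in Ctrl-AMs, 0.372, 0.384 and 0.537 in Tumor-AMs and 3.26, 6.97 and 2.52 in Tumor-macrophages. About 14 reads over the 3 controls and 52 over the 3 Tumor-AM samples stand behind these values, and the change was 0.38 (SE 0.26, limma adjusted p = 0.415). Mx2 was at 0.0368, 0 and 0 in Ctrl-AMs, 0.0782, 0.144 and 0.066 in Tumor-AMs and 1.05, 0.869 and 0.653 in Tumor-macrophages, and was not tested. Mx1 and Ifi44 passed the filter through Tumor-macrophages only, so those 2 had to differ there, and no test of them against Tumor-macrophages is given. Without them, 33 of 37 members were higher in Tumor-macrophages than in Tumor-AMs and 35 of 37 higher than in Ctrl-AMs. Among the 37, Oas2, Oasl1, Cmpk2 and Usp18 reached 1 FPKM in 2 Tumor-AM samples and in no control. They too passed the filter only with their Tumor-macrophage samples.

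None of the 6 nucleic-acid sensors and RNA modifiers passed the test between Tumor-AMs and Ctrl-AMs. With 7.11% of all genes higher, 0 calls in 6 genes says little about the class. All 6 changes were above 0, with a median of 0.35, and 3 had an unadjusted limma p under 0.05. The 6 included Ddx58 and Ifih1, which encode the cytosolic RNA sensors RIG-I and MDA5, with changes of 0.35 (adjusted p = 0.14) and 0.05 (adjusted p = 0.844). Eif2ak2, which encodes the double-stranded RNA-activated kinase PKR, had 2.63, 2.91 and 2.93 in Ctrl-AMs and 4.20, 4.53 and 3.46 in Tumor-AMs (0.40, limma adjusted p = 0.0856). Its groups and those of Ddx58 did not overlap. Zbp1, the sensor of Z-form nucleic acid, had 10.5, 12.2 and 14.8 against 19.8, 27.4 and 15.1 (0.66, limma adjusted p = 0.107). Adar, which edits adenosine in double-stranded RNA, had 3.83, 4.38 and 3.73 against 5.27, 7.18 and 4.02, and these overlapped (0.36, SE 0.168, limma adjusted p = 0.224).

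The 8 genes of ubiquitin, ISG15 and ADP-ribose conjugation also gave 0 calls in this comparison. Against 7.11% of all genes, 0 calls in 8 genes says little as well. Their median change was 0.18, and 6 of the 8 were above 0. Isg15, the ubiquitin-like modifier for which the class is best known, had an FPKM of 2.67, 3.78 and 4.43 in Ctrl-AMs, 5.36, 9.75 and 5.46 in Tumor-AMs and 27.7, 43.9 and 27.3 in Tumor-macrophages. The Tumor-AM samples all lay above the controls, but the change did not pass (0.74, SE 0.245, limma adjusted p = 0.0879). Usp18, which removes ISG15 from its targets and damps receptor signalling, had 0.469, 0.502 and 0.959 in Ctrl-AMs and 1.27, 3.11 and 0.934 in Tumor-AMs (0.69, SE 0.262, limma adjusted p = 0.133). The remaining members of the class, Herc6, Trim30a, Dtx3l, Parp9, Parp14 and Trim25, had changes between -0.07 and 0.21.

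Of the 7 other members, Phf11b, Xaf1 and Sp100 were higher in Tumor-AMs. Phf11b, a PHD finger gene, went from 0.938, 1.05 and 2.77 in Ctrl-AMs to 4.35, 4.76 and 5.66 in Tumor-AMs (1.26, SE 0.24, limma adjusted p = 0.00915), with 26.8% of its windows shared with other Phf11 copies. Xaf1, which encodes a binding partner of the caspase inhibitor XIAP, was higher by 0.71 (limma adjusted p = 0.0132). Sp100, a component of nuclear bodies, was higher by 0.60 (limma adjusted p = 0.0348). Rtp4 had 2.09, 2.51 and 2.98 against 6.08, 10.2 and 3.64, so that the groups did not overlap, and just missed the threshold (1.03, limma adjusted p = 0.0531). The lowest change of all belonged to Samd9l, at -0.15 (limma adjusted p = 0.589).

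Of the 39 tested members, 34 had a fitted change above 0 from Ctrl-AM to Tumor-AM, with a median of 0.57 against 0.0142 over all genes. In 24 of them every Tumor-AM sample lay above every Ctrl-AM sample, as was the case for 18.9% of all genes, and 23 had an unadjusted p under 0.05. The number of calls depended on single samples. It was 5 without Ctrl-AM 1, 7 without Tumor-AM 2 and 8 without Ctrl-AM 3, and Oasl2, Oas1g, Oas1a, Phf11b and Xaf1 passed in all 18 alternatives. It was 6 when all genes were tested with no filter on low values.

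**Figure D3:**
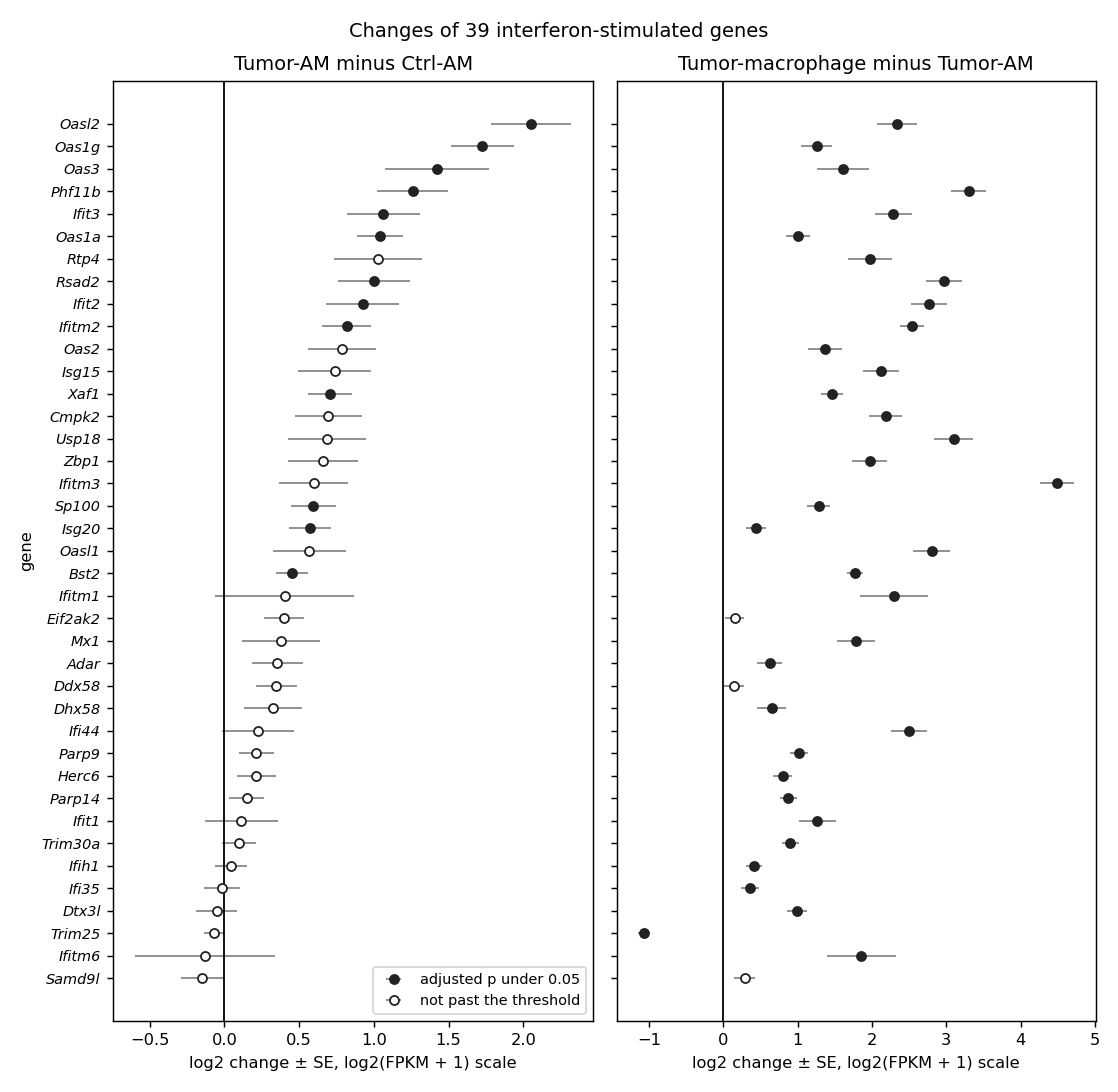
Fitted log2 changes with standard errors (x axis, log2(FPKM + 1) scale) of the 39 tested members, ordered by the change from Ctrl-AM to Tumor-AM (left), with the difference between Tumor-macrophages and Tumor-AMs for the same genes (right). Filled points have a limma adjusted p under 0.05. On the right, Mx1 and Ifi44 are filled but had to differ by the filter. Oas2, Oasl1, Cmpk2 and Usp18 passed the filter only with their Tumor-macrophage samples. The order of the genes on the left is not the order on the right, where Ifitm3 is farthest to the right and Trim25 is the point below 0.

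The second comparison asks how the 2 macrophage populations of the tumor-bearing lung differ. Here all 10 cap-binding and RNA-degrading effectors, all 5 membrane and entry genes and 4 of 6 sensors were higher in Tumor-macrophages than in Tumor-AMs. So were the 3 tested GTPase and metabolism genes, 7 of 8 conjugation genes and 6 of 7 others, against 24.2% of all genes. Mx1, among the GTPase genes, and Ifi44, among the others, had to differ by the filter. Oas2, Oasl1, Cmpk2 and Usp18 passed the filter only with their Tumor-macrophage samples, which favours such a difference. The median difference was 1.46 on the log2(FPKM + 1) scale (all genes 0.0012), and 34 members did not overlap between the groups and were higher in Tumor-macrophages, as were 27.6% of all genes. The 34 include Mx1 and Ifi44. The 3 members that did not pass were Samd9l, Eif2ak2 and Ddx58.

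Ifitm3 differed most. Its FPKM was 828, 1622 and 953 in Tumor-macrophages, against the 37.7 to 62.4 of Tumor-AMs given above, a log2 difference of 4.49 (SE 0.233, limma adjusted p = 8.58e-08) and a ratio of means of 23.4. Ifitm2, its neighbour on chromosome 7, reached 838, 1268 and 1157, a difference of 2.54 (limma adjusted p = 4.19e-07). Phf11b stood at 56.1, 70.3 and 47.1 in Tumor-macrophages, higher by 3.30 (SE 0.24, limma adjusted p = 1.03e-06). Usp18 stood at 19.0, 26.9 and 19.5, higher by 3.10 (SE 0.262, limma adjusted p = 3.33e-06), although it had not passed the test between the AM groups. Usp18 passed the filter only with these Tumor-macrophage samples.

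Rsad2 had an FPKM of 13.2, 27.3 and 18.8 in Tumor-macrophages, 2.96 above Tumor-AMs (SE 0.241, limma adjusted p = 2.46e-06). Oasl1, which in mice restrains the translation of Irf7, had 0.255, 0.596 and 0.708 in Ctrl-AMs, 1.4, 1.58 and 0.8 in Tumor-AMs and 10.3, 21.5 and 13.8 in Tumor-macrophages, a difference of 2.80 between the last groups (SE 0.244, limma adjusted p = 4.31e-06). Like Usp18, Oasl1 passed the filter only with its Tumor-macrophage samples. Isg15 was higher by 2.12 (SE 0.245, limma adjusted p = 3.78e-05) and Bst2, at 263, 295.5 and 249, by 1.77 (SE 0.107, limma adjusted p = 2.44e-07). Ifit3 was higher by 2.29 (SE 0.245, limma adjusted p = 2.12e-05). The smallest called rises were those of Ifi35 (0.36, limma adjusted p = 0.0328), Ifih1 (0.41, limma adjusted p = 0.00889) and Isg20 (0.44, limma adjusted p = 0.0241). Adar, at 8.28, 9.97 and 8.31, was higher by 0.63 (SE 0.168, limma adjusted p = 0.0101).

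Trim25 encodes a ubiquitin ligase that modifies RIG-I and can itself be joined to ISG15. Its FPKM was 93.7, 99.7 and 93.0 in Ctrl-AMs, 92.8, 89.8 and 90.8 in Tumor-AMs and 47.0, 40.8 and 41.3 in Tumor-macrophages. Its mean in Ctrl-AMs was exceeded only by that of Ifitm2 among the members, and it was the only tested member lower in Tumor-macrophages. The difference from Tumor-AMs was -1.07 (SE 0.0728, limma adjusted p = 6.11e-07) and that from Ctrl-AMs was -1.13 (SE 0.0728, limma adjusted p = 3.01e-07). The AM groups, whose values did not overlap but lay within a few FPKM of each other, differed by -0.07 (SE 0.0728, limma adjusted p = 0.64).

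**Figure D4:**
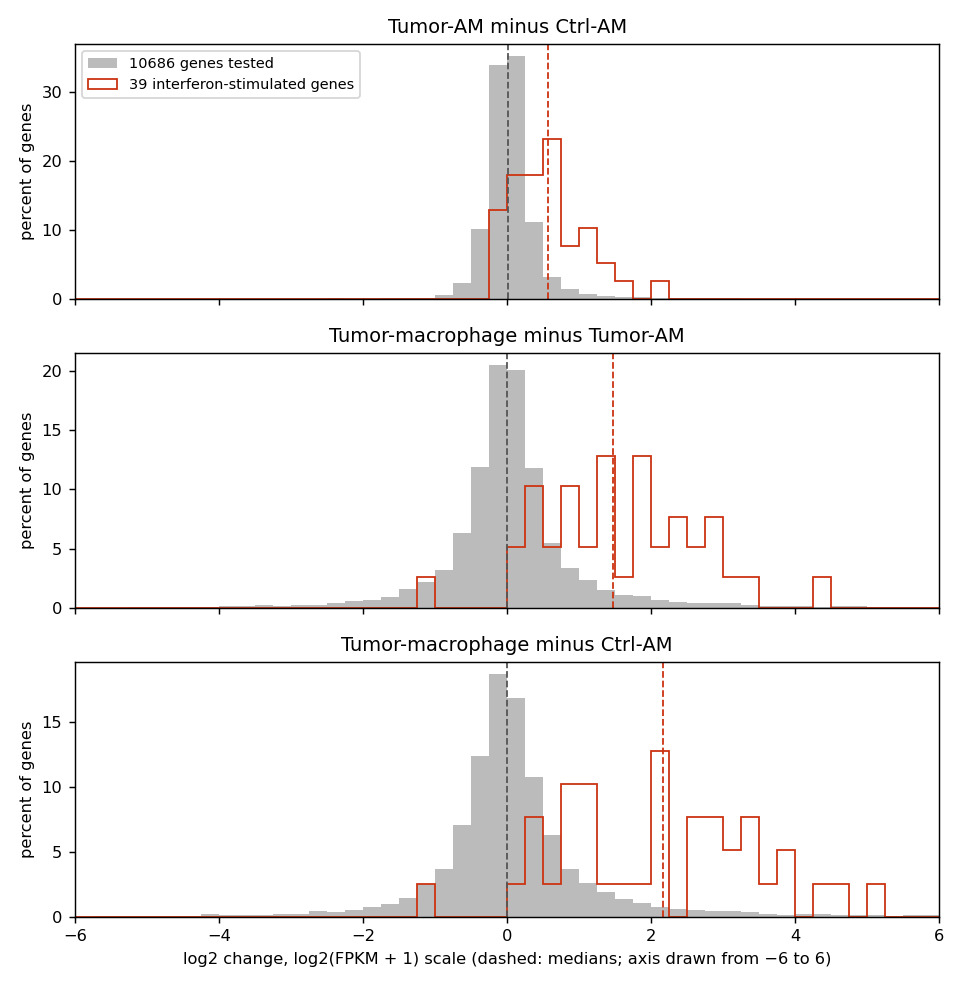
Distribution of fitted log2 changes (x axis, log2(FPKM + 1) scale, drawn from -6 to 6) as percent of genes (y axis) for the 10686 genes tested (grey) and the 39 tested members (red outline) in the 3 comparisons, with medians as dashed lines. The median of all genes lies near 0 in each panel, and that of the members lies at 0.57, 1.46 and 2.17 from top to bottom.

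Against Ctrl-AMs, Tumor-macrophages had 37 of 39 members higher, 1 lower (Trim25) and 1 that did not pass (Samd9l, 0.14, limma adjusted p = 0.439). Without Mx1 and Ifi44, 35 of 37 were higher. These 37 include Oas2, Oasl1, Cmpk2 and Usp18, which passed the filter only with their Tumor-macrophage samples. The median difference was 2.17 against -0.0082 over all genes. In 36 members, Mx1 and Ifi44 among them, every Tumor-macrophage sample lay above every Ctrl-AM sample, which held for 31.1% of all genes. Ifitm3 again led with 5.08 (SE 0.233, limma adjusted p = 2.35e-08), followed by Phf11b with 4.56 (SE 0.24, limma adjusted p = 6.56e-08), Oasl2 with 4.38 (SE 0.269, limma adjusted p = 2.11e-07), Rsad2 with 3.96 (SE 0.241, limma adjusted p = 1.96e-07) and Usp18 with 3.79 (SE 0.262, limma adjusted p = 5.35e-07). Eif2ak2 and Ddx58, which did not pass in the comparisons of neighbouring groups, were higher here, Eif2ak2 by 0.55 (limma adjusted p = 0.00463) and Ddx58 by 0.49 (limma adjusted p = 0.0107).

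Placing the AM values between the other groups showed how unequal the members were. The rise of the mean FPKM from Ctrl-AM to Tumor-AM was 33.7% of the rise from Ctrl-AM to Tumor-macrophage for Oas1a, 33.4% for Oas1g, 27.6% for Oas3 and 47.7% for Isg20. The same share was 5.34% for Usp18, 5.94% for Phf11b, 5.04% for Oasl1 and 1.58% for Ifitm3. It was largest for Eif2ak2 (68.4%) and Ddx58 (65.9%), neither of which passed the test between the AM groups. Over the 38 tested members with a higher mean in Tumor-macrophages than in Ctrl-AMs, the median share was 10.3%.

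Markers of the other sorted population also differed between the AM groups. Of 7 Tumor-macrophage and monocyte markers, Ccr2, Ly6c2, C1qa, C1qb and C1qc were higher in Tumor-AMs than in Ctrl-AMs (7.11% of all genes). The summed FPKM of the 7 was 23.1 to 29.0 in Ctrl-AMs, 68.2 to 127 in Tumor-AMs and 13600 to 14000 in Tumor-macrophages. On the same scale as above, the rise of these markers in Tumor-AMs was 0.234% to 7.07% of their rise in Tumor-macrophages, with a median of 0.532%. Of the 38 members, 26 had a larger share than the highest of the 7 markers, and members not called between the AM groups are among them. The called members Phf11b (5.94%) and Rsad2 (6.67%) lay within the range of the markers, and the other called members lay above it. Of 6 AM markers, 1 (Pparg) was lower in Tumor-AMs than in Ctrl-AMs, against 3.18% of all genes. All 6 were lower in Tumor-macrophages than in Tumor-AMs and Ctrl-AMs, against 24.4% and 27.1% of all genes.

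Of 4 plasmacytoid dendritic cell markers, a cell type known for making type I interferon, Siglech, Ccr9 and Klk1 stayed under an FPKM of 1 in all 9 samples. The summed level was 1.72 to 2.03, 2.46 to 3.75 and 9.76 to 10.4 in the order of the groups. Most of it came from Tcf4, with means of 1.57, 2.66 and 9.29. Tcf4 was higher in Tumor-AMs than in Ctrl-AMs (0.50, limma adjusted p = 0.034) and higher in Tumor-macrophages in both comparisons. The summed level of 5 fibroblast markers was 3.61 to 6.33 in Ctrl-AMs and 12.7 to 83.8 in Tumor-AMs, with the highest value in Tumor-AM 3. Of the 3 tested, Lum (3.13, limma adjusted p = 0.00736) and Col3a1 (1.99, limma adjusted p = 0.0272) were higher in Tumor-AMs than in Ctrl-AMs. Of all genes, 7.11% were. Dcn did not pass (1.58, limma adjusted p = 0.0666). Summed levels of 4 B cell markers were 12.7 to 16.8 in Ctrl-AMs, 3.15 to 7.49 in Tumor-AMs and 31.5 to 58.2 in Tumor-macrophages, and those of 6 T and NK cell markers 9.37 to 11.9, 6.7 to 21.9 and 20.6 to 42.0. Those of 5 neutrophil markers were 142 to 169, 146 to 209 and 93.6 to 143. Of these, S100a9 (-1.81, limma adjusted p = 0.0173) and Retnlg (-1.09, limma adjusted p = 0.0391) were lower in Tumor-AMs than in Ctrl-AMs. S100a8 ran the other way (0.60, limma adjusted p = 0.0708) and, like Csf3r and Mmp8, did not pass. Those of 5 epithelial markers were 71.0 to 219, 54.0 to 92.0 and 19.0 to 73.5. The part of other cells in the ISG values was not tested.

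The genes upstream of the ISGs were examined as lists. Of 11 interferon ligand genes, none reached an FPKM of 1 in any sample, and 6 were at 0 in all 9. Ifnb1, which encodes interferon beta, was at 0.127 in Ctrl-AM 3, at 0.156 in Tumor-macrophage 2 and at 0 in the other 7 samples. Ifng reached at most 0.719, in Tumor-macrophage 1. Of the 4 receptor genes, Ifnar2 (0.45, limma adjusted p = 0.00702) and Ifngr2 (0.36, limma adjusted p = 0.0199) had higher values in Tumor-AMs than in Ctrl-AMs. Of all genes, 7.11% were higher there. Ifnar1 had 5.45, 4.30 and 4.56 in Ctrl-AMs, 6.59, 6.56 and 5.67 in Tumor-AMs and 34.9, 29.3 and 28.4 in Tumor-macrophages. All 4 receptor genes were higher in Tumor-macrophages than in Tumor-AMs and Ctrl-AMs, against 24.2% and 27.7% of all genes.

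Among 10 signal transducers and interferon regulatory factors, 4 were higher and 0 lower in Tumor-AMs, against 7.11% and 3.18% of all genes. Irf7, the factor that amplifies interferon production and is itself an ISG, had 3.17, 4.97 and 5.65 in Ctrl-AMs, 12.1, 20.4 and 8.94 in Tumor-AMs and 83.2, 120.7 and 82.1 in Tumor-macrophages. It was higher by 1.36 in Tumor-AMs (SE 0.274, limma adjusted p = 0.0121) and by 4.11 in Tumor-macrophages against Ctrl-AMs (limma adjusted p = 4e-07). Its samples had the same order as many ISGs, with the second sample highest in both tumor groups. Irf9, the DNA-binding subunit of the interferon-activated complex, had 5.99, 7.25 and 5.95 in Ctrl-AMs and 10.4, 16.0 and 10.5 in Tumor-AMs (0.82, limma adjusted p = 0.00741). Irf1 rose by 1.13 (limma adjusted p = 0.0039) and Irf8 by 0.45 (limma adjusted p = 0.017), while Stat2 did not pass (0.50, limma adjusted p = 0.178). In Tumor-macrophages 7 of the 10 were higher than in Tumor-AMs and 1, Irf3, was lower (all genes 24.2% and 24.4%). Against Ctrl-AMs 8 were higher and 2, Irf3 and Tyk2, were lower (all genes 27.7% and 27.1%).

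**Figure D5:**
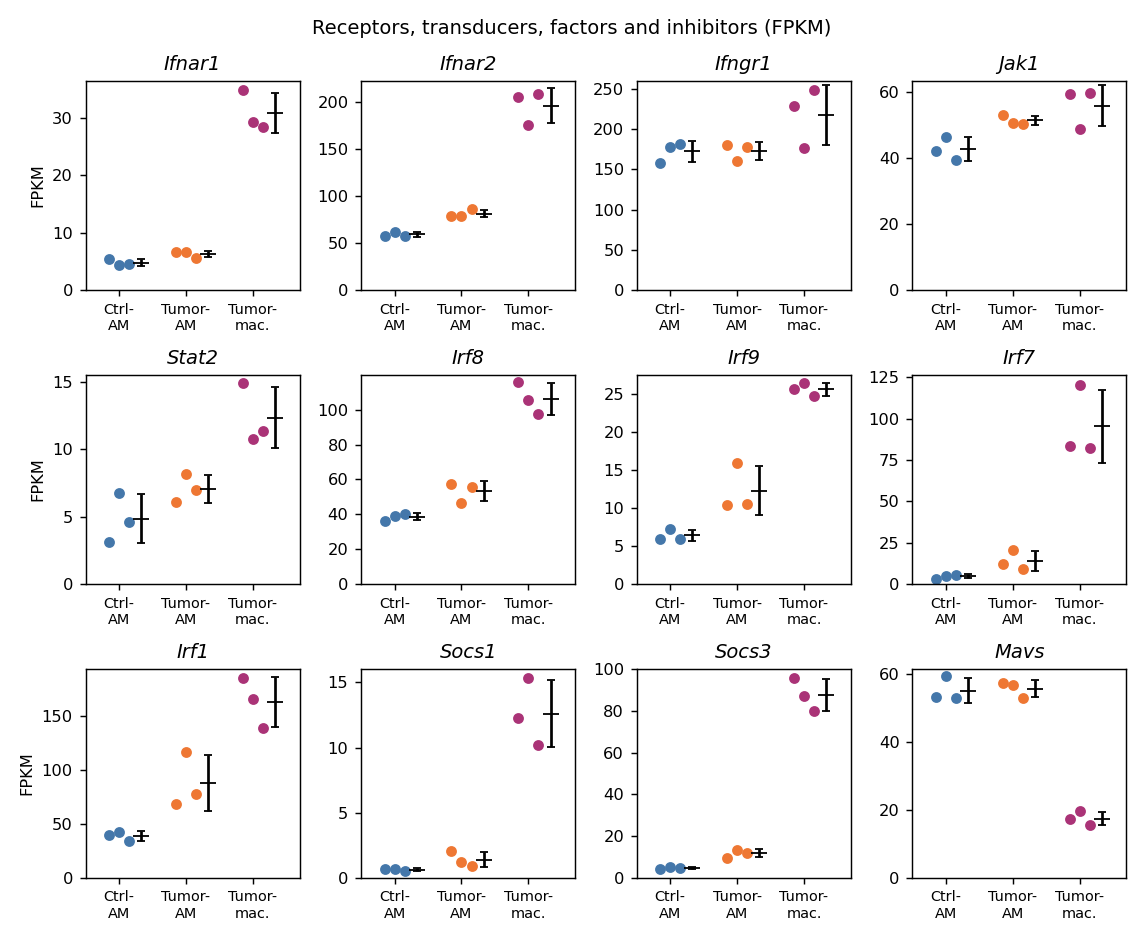
FPKM (y axis, linear and starting at 0, with its own scale in each panel) of 12 pathway genes in each of the 9 samples, 3 points per group, with the group mean and SD as black bars. Irf7, Irf9, Irf1 and Irf8 step up from Ctrl-AM to Tumor-AM to Tumor-macrophage, and Mavs is lower in Tumor-macrophages.

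Of 5 inhibitors, Socs3, a feedback inhibitor of JAK kinases, was the only gene higher in Tumor-AMs (1.12, limma adjusted p = 0.000599), where 7.11% of all genes were. Socs1 had 0.644, 0.706 and 0.494 in Ctrl-AMs, 2.05, 1.18 and 0.939 in Tumor-AMs and 12.3, 15.3 and 10.2 in Tumor-macrophages, and passed the test against Tumor-AMs (2.52, limma adjusted p = 1.33e-06) but not between the AM groups (0.54, limma adjusted p = 0.104). In Tumor-macrophages 3 of the 5 inhibitors were higher than in Tumor-AMs and 1, Ptpn2, was lower (-0.38, limma adjusted p = 0.00185). The shares of all genes were 24.2% and 24.4%. Of 10 tested genes of nucleic-acid and Toll-like receptor sensing, Ikbke, a kinase that activates IRF3 and IRF7, was the only gene higher in Tumor-AMs (1.36, limma adjusted p = 0.00178). This 1 of 10 lay near the 7.11% of all genes. In Tumor-macrophages 4 of the 10 were higher than in Tumor-AMs and 4 were lower, where 24.2% and 24.4% of all genes were, so that this list showed no common direction. Among the lower genes was Mavs, the mitochondrial adaptor of RIG-I and MDA5, which had 57.5, 56.6 and 52.9 in Tumor-AMs and 17.3, 19.5 and 15.5 in Tumor-macrophages (-1.63, limma adjusted p = 1.69e-07).

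Genes known mainly for their response to interferon gamma were tested beside the ISGs, 4 in number. Ido1, also on this list of 5, reached an FPKM of at most 0.247, in Tumor-macrophage 3, and was not tested. In Tumor-AMs 3 of the 4 were higher than in Ctrl-AMs, against 7.11% of all genes. Cxcl9, a chemokine for T cells, had 0.604, 0.741 and 0.609 in Ctrl-AMs, 2.69, 6.95 and 2.63 in Tumor-AMs and 126.2, 156.6 and 103.9 in Tumor-macrophages (1.52 in Tumor-AMs, limma adjusted p = 0.00628). Gbp2 rose by 1.33 (limma adjusted p = 0.00666) and Iigp1 by 1.01 (limma adjusted p = 0.0111), both GTPases of cell-autonomous defence. Ciita, the master regulator of class II antigen presentation, had 0.690, 1.24 and 1.63 in Ctrl-AMs and 1.34, 1.03 and 1.05 in Tumor-AMs (-0.01, limma adjusted p = 0.987). All 4 were higher in Tumor-macrophages than in Tumor-AMs and Ctrl-AMs, against 24.2% and 27.7% of all genes. Which interferon, if any, acted on these cells cannot be told apart from transcript levels of genes that answer to several of them.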

How the data were processed

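Sorted lung macrophages of 3 groups were measured by RNA sequencing of polyA RNA. According to the study's methods and processing notes, the authors prepared cDNA with the SMART-Seq HT kit, sequenced 75-base reads, aligned them to mm10 with TopHat2 2.1.1 and Bowtie2, and deposited FPKM per gene symbol, with Cuffdiff 2.2.1 among the tools. The annotation, strand use and handling of multi-mapped reads are not given in the sources used here. The authors also used iDEP, with settings not stated.

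Values were analysed as log2(FPKM + 1), which understates the changes of low genes. Genes with 1 FPKM or more in 3 or more of 9 samples entered a limma fit (version 3.58.1, R 4.3.3) with a trended prior variance and the spread estimated jointly from all 9 samples. The two-sided p-values were Benjamini-Hochberg adjusted over 10686 genes, with a threshold of 0.05, and the procedure was tested on simulated data. Depth estimates assumed a mean fragment of 200 bases and cover counting error only. The study gives 3 mice per population, and p-values measure the spread between these samples. A gene of the pathway lists is not reported here. Members, lists and roles were chosen with earlier results of these data known. Full statistics are given for the 5 called members with the largest change in each comparison and for Isg15, Ifit3, Mx1, Oas1a, Bst2, Ifitm3, Usp18 and Adar. Shared windows and positions came from GENCODE vM21, and promoters from RefSeq GRCm38.p6. Alternatives covered the pseudocount, filter, scaling, prior variance, samples in the fit, a replicate block and leaving out each sample. Python 3.11.15, pandas 2.3.3 and matplotlib 3.10.9 were used.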

Additional observations from a re-analysis of the deposited data

How the results depend on the processing

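Each of the 39 tested members was refitted under 18 alternatives per comparison. No called member changed sign. Between Tumor-AMs and Ctrl-AMs, 5 of the 13 called members passed in every alternative and 21 of the 26 others in none. The corresponding numbers were 33 of 36 and 3 of 3 for Tumor-macrophages against Tumor-AMs, and 35 of 38 and 1 of 1 against Ctrl-AMs. With no filter on low values, 18402 genes were tested and 6 members passed between the AM groups. Leaving out 1 sample at a time moved that count from 5 (without Ctrl-AM 1) to 17 (without Tumor-macrophage 2). It was 7 without Tumor-AM 2, 8 without Ctrl-AM 3 and 11 without Tumor-AM 3. The count over all genes, 1100 with all samples, ran from 538 to 1254 at the same omissions. A fit to fewer samples has fewer degrees of freedom, and the cause of the remaining movement was not tested. Leave-one-out medians for Tumor-macrophages against Tumor-AMs ran from 1.18 (without Tumor-AM 3) to 1.60 (without Tumor-AM 2). With a pseudocount of 0.1 the members' median was 1.78 against Tumor-AMs and 2.57 against Ctrl-AMs, since a smaller pseudocount enlarges changes of low genes.

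Rescaling each sample to TPM moved the median of all genes to -0.11 between the AM groups and to -0.22 between Tumor-macrophages and Ctrl-AMs. All genes called were then 475 higher and 824 lower between the AM groups, against 760 and 340 as deposited, 2129 higher and 3129 lower for Tumor-macrophages against Tumor-AMs, and 2130 higher and 4409 lower against Ctrl-AMs. Of the members, 11 were then higher between the AM groups, with a median of 0.48, 33 were higher and 1 lower against Tumor-AMs, and 34 were higher and 1 lower against Ctrl-AMs. Quantile normalization gave 607 higher and 446 lower genes between the AM groups, with 12 members higher.

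Samples of the same number correlated between -0.0615 and 0.159 in their deviations from the group means, and they were taken to share only a number, since not every pair was above 0.1. Between Tumor-AMs and Tumor-macrophages all 3 samples correlated best with their own number (0.026, 0.0964 and 0.109). Between Ctrl-AMs and the other groups not every sample did. The highest value, 0.159, was that of Ctrl-AM 2 with Tumor-AM 2, which came from different mice. The correlations therefore cannot tell whether samples shared a mouse. With the replicate number as a block, 17 members were called between the AM groups, 36 between Tumor-macrophages and Tumor-AMs and 38 between Tumor-macrophages and Ctrl-AMs, and 938, 5069 and 5772 genes in all. Changes under 1 FPKM rest on few reads, such as the 8 estimated for Ifi44 over the 3 controls, and were not resolved at this depth. Several members called between the AM groups also had few control reads. The estimates over the 3 controls were 27 for Ifit3, 43 for Rsad2, 57 for Oas1g and 75 for Oasl2.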
